A study of Saccharomyces cerevisiae with 28 samples.

Results

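The stretch of the yeast rDNA spacer *IGS2* that lies immediately left of the ribosomal origin of replication (rARS) was examined at single-base resolution in MNase-seq and Mcm2-ChEC libraries. It comprises 270 of the 2001 bases for which depth was deposited, chromosome XII 458721 to 458990 of sacCer3 (R64). Its right edge is the base before the annotated origin ARS1200-1 (458991 to 459097). On the left it meets a window here called the Reb1 footprint, after the transcription factor Reb1 (458591 to 458720). That window starts 400 bases left of the rARS and was set by distance, not from a mapped footprint. The bounds of the stretch were set as coordinates, with no depth in the rule but with the footprints of this study known. The stretch was divided into nucleosome 1 (458721 to 458901, 181 bases), a linker of 9 bases (458902 to 458910) and the left part of the site at which Mcm2-7 is loaded (458911 to 458990, 80 bases). The RefSeq annotation places it in the spacer NTS2-1 (458433 to 459675) between the RDN37-1 gene (451575 to 458432, minus strand) and the 5S gene RDN5-1 (459676 to 459796, plus strand), outside every gene, exon and UTR.

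MNase-seq was available for 6 libraries with 1 for each condition. WT and *sir2* cells were each arrested in G1 or G2, and *cdc6-1* cells in G1 at 37° or 23°. G1 arrest was by alpha factor and G2 arrest by nocodazole. All these strains are *MATa his3 leu2 met15 ura3*, the WT and *sir2* strains also carry *hmlα::HygR*, the *sir2* strain carries *sir2Δ::KanMx*, and the temperature-sensitive *cdc6-1* strain carries a KanMx marker at that allele and no listed *HML* deletion. Mcm2-ChEC was available for 7 libraries, all from alpha factor-arrested cells in which MCM2 carries a C-terminal 3xFLAG-MNase fusion marked with KanMx. Of these, 1 *sir2* library (*sir2Δ::LEU2*) and 2 WT libraries came from strains with the same auxotrophies and *hmlα::HygR*, here called the *FOB1* strains. The other 4 came from *fob1Δ::HIS3* strains listed with chromosome XII right armΔ::HygR and expanded rDNA, here without a transcriptional terminator, 2 from the *sir2* strain (*sir2Δ::LEU2*, *hmlαΔ::NAT*) and 2 from the *SIR2* strain, which has no listed *HML* deletion. Their common background holds *ade2-1*, *trp1-1*, *ura3-1*, *can1-100* as well as *his3-11* and a *leu2* mutation. The column names give calcium treatments of 30 s and 1 min for the 2 libraries of each expanded strain, and 1 min for the shallower WT library, whose name also carries an unexplained tag ending in Cu that no other ChEC name in use has. The names of the *sir2* library and the deeper WT library of the *FOB1* strains share an unexplained tag ending in mAF, which may or may not hold a calcium time. A figure legend gives 30 s for these strains without naming libraries. The times of these 2 libraries may thus differ from that of the shallower WT library. Sonicated DNA of expanded *sir2* and *SIR2* strains of this background without the Mcm2 fusion, sorted in G1 and in S phase (4 libraries), served as DNA cut without the nuclease.

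Reb1 binds DNA in a sequence-specific manner and often sits beside nucleosome-depleted promoters. The promoter c-pro starts within this stretch and is transcribed rightward into the origin by RNA polymerase II, and the histone deacetylase Sir2 represses it. In G1 the origin recognition complex and Cdc6 load the replicative helicase Mcm2-7 onto DNA as a double hexamer, which licenses the origin. MNase-seq recovers DNA that proteins shield from micrococcal nuclease, whereas in ChEC the nuclease is fused to a protein, here Mcm2, and cuts DNA close to it once calcium is added. The paper reports that a nucleosome also occupies the site of helicase loading, with its fragments depleted in WT in G1 and persisting in *sir2*. Depth here was not selected by fragment size, so MNase-seq depth at the loading site can hold both nucleosome and Mcm2-7 fragments.

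The sequence below is the stretch in which all the depths were measured, with the 80 bases of the loading site in capitals (chromosome XII, R64, plus strand, 5′ to 3′, RefSeq).
IGS2 left of the rARS: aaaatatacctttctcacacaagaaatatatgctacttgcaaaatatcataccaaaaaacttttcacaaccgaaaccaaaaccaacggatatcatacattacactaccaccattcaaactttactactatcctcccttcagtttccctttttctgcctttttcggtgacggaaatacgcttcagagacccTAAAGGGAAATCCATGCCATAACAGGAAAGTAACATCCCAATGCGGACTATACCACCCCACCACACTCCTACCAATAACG

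The reference holds this sequence 2 times on chromosome XII, at 458721 to 458990 and at 467858 to 468127, and each depth sums reads from all repeats of the array. Its G+C content was 39.6%, against a median of 38.1% over 3993 windows of the same length along chromosome XII, and differed between its windows. Nucleosome 1 had 35.4% G+C and the loading site 46.3%, while ARS1200-1 to the right had 27.1%. Runs of at least 5 A or T were found 3 times, all within nucleosome 1, as 1 run of 6 A at 458774 to 458779 and 2 runs of 5 T at 458868 to 458872 and 458878 to 458882. Of the windows along chromosome XII, 77.0% held such a run.

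Neither strand of the stretch held the Reb1 core CGGGTAA, which 1.85% of the chromosome XII windows contained. The nearest copy, on the plus strand at 458638 to 458644, ended 76 bases to the left, inside the Reb1 footprint. The ARS consensus, the element that the origin recognition complex binds, also had no match here (1.80% of windows), and its only match nearby lay within ARS1200-1, on the minus strand. A TATA box, searched on both strands as TATANAN with A or T at each N, was not found either, although 26.1% of windows held one.

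The depths had sharp base-to-base steps, and the steps fell at the same bases in most libraries. Depth is given relative to the mean over all 2001 bases of the same library, so that 1 is the mean, and counts the 50 bases sequenced from each fragment end. A preferred end therefore gives a rise where its reads start and a fall 50 bases later. The 3 largest rises of each of the 13 libraries fell on 9 positions in all and the 3 largest falls on 8, and 5 reads were seen by their rise or fall in at least 4 libraries. These started at 458750, 458862, 458914, 458931 and 458968, and the DNA at the ends of these reads that carry TA is shown here because the same dinucleotide recurred. Capitals mark the last base before and the first base after the read end. Only 1 end of a read need be a cut, since reading stops after 50 bases, and the depths do not show which. Neither end of the read at 458914 has TA, and its left end is given.
Left end of the read at 458750: caagaaataTAtgctacttg
Right end of the read at 458862: cagagacccTAaagggaaat
Left end of the read at 458914: gagaccctaAAgggaaatcc
Left end of the read at 458931: tccatgccaTAacaggaaag
Right end of the read at 458931: ccacactccTAccaataacg
Right end of the read at 458968: tcttactccTAtgtctattc

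Of these 5 reads, 4 had TA at 1 end or both, and of the 9 positions of large rises 6 did (66.7%). Over all 270 bases, a read starting there would have TA at either end in 14.1%. Micrococcal nuclease is known to cut preferentially beside A and T, and the reads were picked for the size of their steps in these same profiles, so the comparison is descriptive. Sonicated DNA had steps between -0.121 and 0.141 at the 8 recurrent rises and falls, the largest of them in the shallowest library, *SIR2* in G1. Both sonicated G1 libraries had all 8 steps in the direction seen with the nuclease, so they carry a faint form of the same pattern, whose source was not tested. In both sonicated S-phase libraries only 4 of the 8 steps had that direction, and none was larger than 0.00983 in size.

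The pair of reads that recurred most within nucleosome 1, from 458750 to 458799 and from 458862 to 458911, enclose a gap of 62 bases and span 162 bases. This span holds the whole linker window and the first base of the loading site, 458911. The rise at 458862 was among the 3 largest in 10 of the 13 libraries, the 6 MNase-seq libraries included, and the rise at 458750 in 9. Both were rises in all 13 libraries. At 458862 the step was 0.677 in WT in G1, 0.576 in WT in G2, 0.643 in *sir2* in G1 and 0.864 in *sir2* in G2. It was 0.260 in *cdc6-1* at 37°, the smallest of the MNase-seq libraries, against 0.709 at 23°. The mean depth of the gap was 0.193 of that of the reads around it in WT in G1 and 0.242 in WT in G2, 0.196 in *sir2* in G1 and 0.170 in *sir2* in G2. In *cdc6-1* the gap held 0.445 of the depth of its flanks at 37° and 0.189 at 23°, so that the 37° library stood apart from the other 5. In sonicated DNA the gap reached between 0.834 and 0.994. The reads and the gap were defined after the profiles were seen. The depths do not pair the ends of fragments, and whether the 2 reads are ends of the same fragments was not tested.

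**Figure D1:**
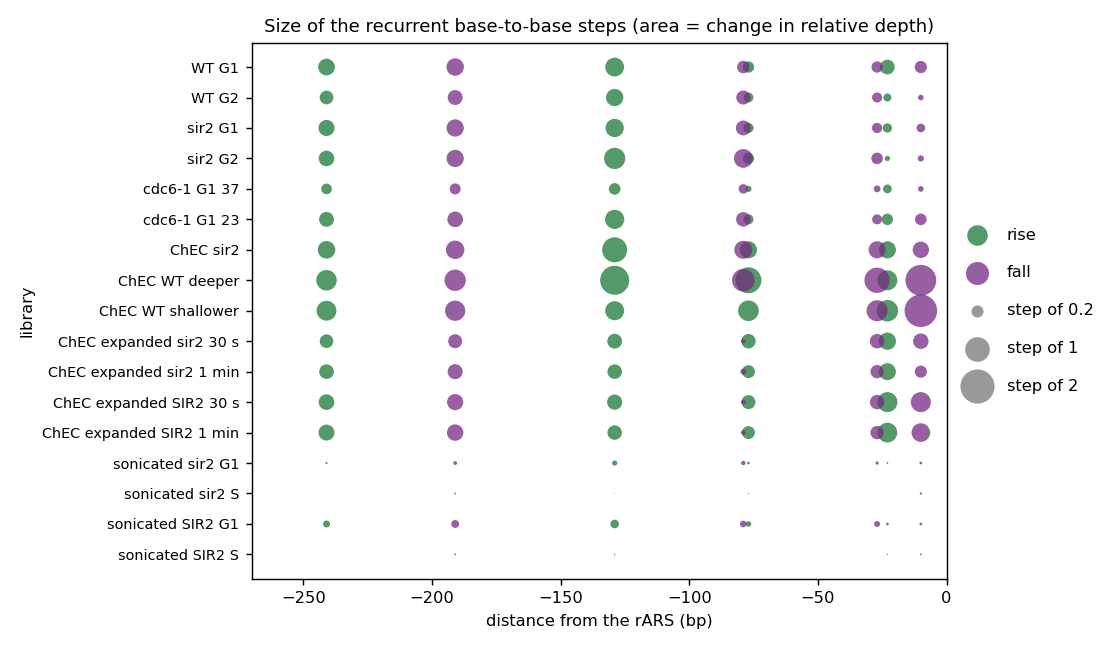
Size of the steps at the recurrent positions (horizontal axis, distance from the rARS in bp) in each library (vertical axis). The area of a point is the base-to-base change in relative depth, green for rises and purple for falls, and only steps in the direction named are drawn. The MNase-seq and Mcm2-ChEC libraries have steps at the same bases with different sizes, up to 2.03 in a WT ChEC library, while those of sonicated DNA stay within 0.141.

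In MNase-seq, WT cells had a higher depth over this stretch in G1 than in G2, and the difference lay in the loading site. The stretch took 20.8% of the depth of the table in WT in G1 and 13.5% in WT in G2, where 270 of 2001 bases are 13.5%, a ratio of 1.54 (95% interval 1.53 to 1.55). Relative depth at the loading site was 2.30 in G1 against 0.814 in G2, a 2.82-fold difference (2.80 to 2.85). Nucleosome 1 had 1.21 in G1 against 1.08 in G2, a 1.11-fold difference (1.11 to 1.12). Intervals here cover counting error only, with 759788 to 2233018 reads a library, and with 1 library per group no difference in MNase-seq has a replicate check or a test. They treat reads as independent although fragments were read at both ends, so they are too narrow where both reads of a fragment fall in a window. The 2 arrests also received different amounts of nuclease by the column names, 7.5 units in G1 and 3.75 units in G2. The effects of arrest and of digestion cannot be told apart.

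Base by base, 81 of the 270 bases were at least 1.5-fold higher in WT in G1 than in G2, against 5.25% of the whole table, and 0 were lower by as much, against 7.55% of the table. The 81 were the 80 bases of the loading site and 1 base of the linker. Tiles of 27 bases showed a difference that grew towards the origin, with log2 ratios of 1.02, 1.48 and 1.99 in the last 3 tiles and of 0.45 or less in the 7 tiles before them. The largest ratio of a single base, 4.53, was at 458966. The highest base of the stretch was 458959 in G1, at 2.85, which was also the highest of the whole table, and 458755 in G2, at 1.99, within nucleosome 1.

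In *sir2* cells the stretch as a whole had the same share in both arrests, 15.4% in G1 and 15.4% in G2 (ratio 1.00, 0.997 to 1.01), with opposite differences in its parts. At the loading site *sir2* cells had 1.22 in G1, against 0.882 in G2 (ratio 1.38, 1.37 to 1.39), and at nucleosome 1 they had 1.10 in G1, against 1.24 in G2 (ratio 0.893, 0.887 to 0.898). Only 28 bases were 1.5-fold higher in G1, all in the loading site (4% of the table), and 0 were lower (0% of the table). The log2 ratio of the last tile was 1.16, of the tile before it 0.41 and of the first loading-site tile 0.07. The highest base was 458772, within nucleosome 1, in both arrests, at 2.05 in G1 and 2.12 in G2. Loading site over nucleosome 1 was 1.10 in G1, against 0.713 in G2, a change of 1.55 times, while the ratio of the highest bases of the 2 windows changed by 0.998 times. In G2 the highest base of the loading site was its first, 458911, at 1.56, and in G1 it was 458952, at 1.51.

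**Figure D2:**
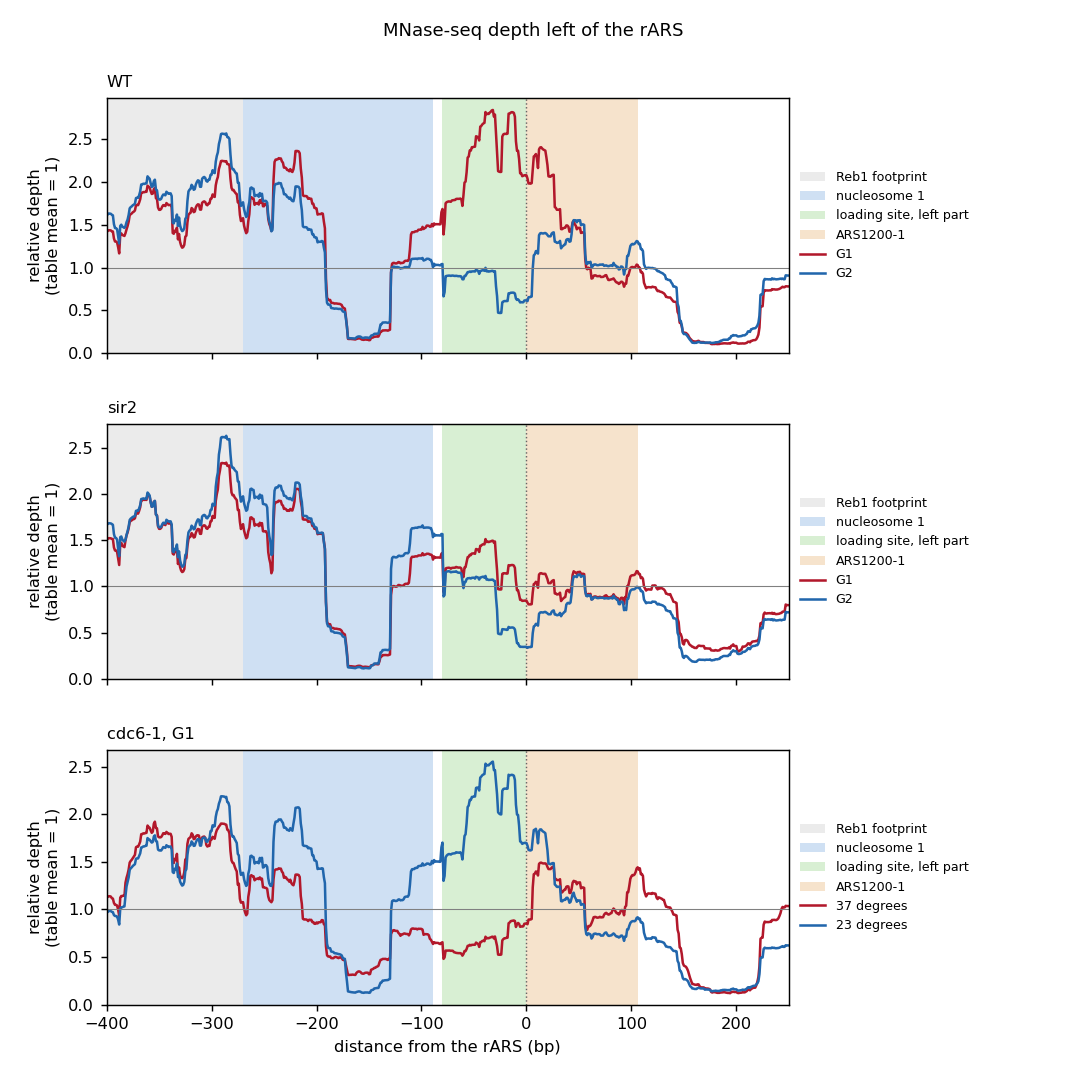
MNase-seq depth (vertical axis, relative to the mean of the table) against distance from the rARS in bp, for WT, *sir2* and *cdc6-1*, with the windows shaded. In WT in G1 and in *cdc6-1* at 23° the loading site rises to 2.85 and 2.55, and in the other 4 libraries it stays at or below 1.56, while the trough within nucleosome 1 is common to all.

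Cdc6 is needed to load Mcm2-7, and the *cdc6-1* product fails at 37°. At that temperature the stretch had 10.3% of the depth, against 18.7% at 23°, a ratio of 0.551 (0.547 to 0.555). Relative depth at the loading site was 0.665 at 37° and 2.04 at 23° (ratio 0.326, 0.322 to 0.331). Nucleosome 1 was lower as well, at 0.815 at 37° and 1.10 at 23° (ratio 0.744, 0.737 to 0.751), whereas the Reb1 footprint had 1.59 at 37° and 1.57 at 23°.

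All 80 bases of the loading site, all 9 of the linker and 59 of nucleosome 1 were 1.5-fold lower at 37° (148 of 270 bases, against 7.85% of the table). A further 41 bases of nucleosome 1 were 1.5-fold higher at 37° (20.8% of the table), with the largest ratio, 2.63, at 458840 in the gap described above. The tile at the centre of the trough had a log2 ratio of 1.23 and the last 3 tiles had -1.54, -1.83 and -1.45. The highest base was 458755 at 37°, at 1.43, and 458959 at 23°, at 2.55, the same pair of bases as in WT in G2 and in WT in G1. Both libraries received 7.5 units of nuclease. Both cultures had been held in nocodazole before the G1 arrest, which was shorter at 37° than at 23°, so temperature, arrest time and loss of Cdc6 cannot be told apart.

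Set against WT in the same arrest, *sir2* cells had a lower loading site in G1 and not in G2. In G1 the stretch had 15.4% of the depth in *sir2* and 20.8% in WT (ratio 0.743, 0.740 to 0.747). Its loading site had 1.22 in *sir2* and 2.30 in WT (ratio 0.530, 0.526 to 0.534), and nucleosome 1 had 1.10 in *sir2* and 1.21 in WT (ratio 0.915, 0.910 to 0.921). The Reb1 footprint had 1.70 in both. In *sir2*, 66 bases were 1.5-fold lower, all in the loading site (5.45% of the table), and 0 were higher (32.4% of the table). The lowest ratio of a base was 0.401, at 458984.

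In G2 the stretch had 15.4% of the depth in *sir2* and 13.5% in WT (ratio 1.14, 1.14 to 1.15). The loading site had 0.882 in *sir2* and 0.814 in WT (ratio 1.08, 1.07 to 1.10), and nucleosome 1 had 1.24 in *sir2* and 1.08 in WT (ratio 1.14, 1.14 to 1.15). Of the 270 bases 13 were 1.5-fold higher in *sir2*, 9 of them the linker (25% of the table), and 23 were lower, 14 in nucleosome 1 and 9 in the loading site (4.8% of the table). Within the loading site the tiles ran from a log2 ratio of 0.34 to 0.18 and -0.38, so the mean hides a lower depth in *sir2* beside the origin. Whether the *sir2* effect differs between G1 and G2 was not tested.

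In Mcm2-ChEC the highest base of the whole table lay within the stretch in the WT strain and in the expanded *SIR2* strain. The stretch took 58.9% of the table's depth in the deeper WT library and 63.9% in the shallower one, 61.4% ± 3.54 (SD, n = 2), and 30.3% in the *sir2* library. In the expanded strains it took 24.5% at 30 s and 23.8% at 1 min in *sir2*, against 35.3% at 30 s and 34.3% at 1 min in *SIR2*. The 4 sonicated libraries had between 15.6% and 15.7%, so all 7 ChEC libraries lay above them. The Wilson 95% intervals of these shares were at most 0.227 percentage points wide for ChEC and 0.917 for sonicated DNA.

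The mean share was 38.7% ± 16.2 (SD, n = 7) in Mcm2-ChEC and 15.7% ± 0.0274 (SD, n = 4) in sonicated DNA, a difference of 23.0 percentage points (exact two-sided permutation test, p = 0.0242, adjusted p = 0.0741 over 4 tests, 0.00303 the smallest p that its 330 permutations allow). The stretch was bounded to hold part of the loading site, which this study had mapped by Mcm2-ChEC, so a higher ChEC share was built in. The 7 ChEC libraries also mix strains, genotypes and calcium times and are not replicates of 1 condition. The p therefore gives no support of its own. For MNase-seq the mean share, 15.7% ± 3.71 (SD, n = 6), differed from that of sonicated DNA by 0.0221 percentage points (exact two-sided permutation test, p = 1, adjusted p = 1). The 6 MNase-seq libraries thus lay on both sides of sonicated DNA, from 10.3% to 20.8%. The sonicated libraries came from the expanded strains, whose depth drops at the right end of the table, and not from the strains of the MNase-seq or of the *FOB1* ChEC libraries.

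**Figure D3:**
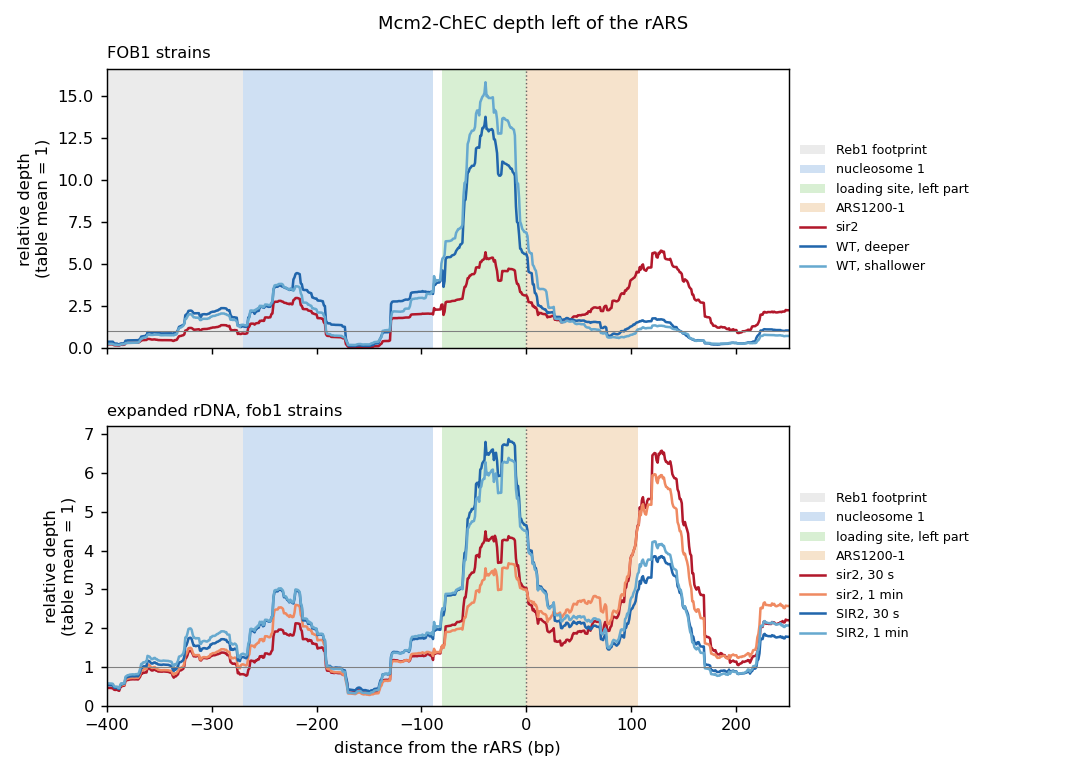
Mcm2-ChEC depth (vertical axis, relative to the mean of the table) against distance from the rARS in bp, for the *FOB1* strains and the expanded *fob1* strains, with the windows shaded. The loading site reaches 13.8 and 15.8 in the WT libraries and 5.71 in *sir2*, and 3.67 to 4.50 in expanded *sir2* against 6.39 to 6.87 in expanded *SIR2*. The vertical scales of the panels differ.

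The *sir2* library of the *FOB1* strains had lower depth than the WT libraries in both parts of the stretch, and more so in the loading site. Relative depth at the loading site was 4.04 in *sir2* and of 9.26 and 11.1 in WT, a ratio of 0.398 (0.366 and 0.437 against each WT library). Nucleosome 1 had 1.45 in *sir2* and 2.22 and 1.97 in WT, a ratio of 0.690 (0.652 and 0.734). Relative to the Reb1 footprint instead, which itself was at 0.613 times its WT level, the ratio was 0.643 for the loading site and 1.13 for nucleosome 1, so the direction at nucleosome 1 depends on the scaling. Scaled to the depth outside the stretch, the ratio was 0.218 for the loading site and 0.382 for nucleosome 1. The calcium times of these libraries may differ, and the part of this was not tested.

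In *sir2*, 189 bases were 1.5-fold lower than in WT, 80 in the loading site, 9 in the linker and 100 in nucleosome 1 (41.4% of the table), and 0 were higher (46.8% of the table). The lowest ratio, 0.348, was at 458965 and the highest, 0.771, at 458787. The highest base was 458952 in all 3 libraries, at 5.71 in *sir2* and at 13.8 and 15.8 in WT. The run of bases at or above 0.5 of that maximum covered 69 bases in *sir2*, from 458924 to 458992, and 53 and 54 bases in WT, from 458931 to 458983 and 458984. In WT this base was also the highest of the table, whereas in *sir2* the highest base of the table, 459119, lay right of ARS1200-1.

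In the expanded strains the difference had the same direction and was smaller. The loading site had 3.38 at 30 s and 2.83 at 1 min in *sir2*, against 5.09 at 30 s and 4.81 at 1 min in *SIR2* (ratio 0.627 of the means). At matched calcium times the ratio was 0.664 at 30 s and 0.589 at 1 min. Nucleosome 1 had 1.14 and 1.31 in *sir2*, against 1.56 and 1.56 in *SIR2* (ratio 0.786, and 0.734 at 30 s and 0.838 at 1 min). Relative to the Reb1 footprint, the ratio was 0.782 for the loading site and 0.976 for nucleosome 1. Scaled to the depth outside the stretch, the ratio was 0.539 for the loading site and 0.675 for nucleosome 1. In *sir2*, 63 bases were 1.5-fold lower, 62 in the loading site and 1 in the linker (3.25% of the table), and 0 were higher (3.4% of the table). The highest base was 458952 at 30 s and 458974 at 1 min in *sir2*, and 458974 at both times in *SIR2*. In *SIR2* this base was also the highest of the table. In *sir2* the highest base of the table lay right of ARS1200-1, at 459120 at 30 s and 459113 at 1 min. The 2 libraries of a strain may come from 1 culture, and the expanded *sir2* strain also differs from the *SIR2* strain at HML.

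Over both backgrounds the share of the stretch was 26.2% ± 3.58 (SD, n = 3) in *sir2* and 48.1% ± 15.5 (SD, n = 4) in *SIR2* libraries, and each *sir2* library lay below each *SIR2* library (difference -21.9 percentage points, two-sided exact permutation within backgrounds, p = 0.0556, adjusted p = 0.0741). With 18 permutations 0.0556 is the smallest p that this design allows, so it cannot reach 0.05. The log2 ratio of loading site to nucleosome 1 averaged 1.39 ± 0.24 (SD, n = 3) in *sir2* and 1.97 ± 0.394 (SD, n = 4) in *SIR2* libraries (difference -0.58, two-sided exact permutation within backgrounds, p = 0.0556, adjusted p = 0.0741). The ratio itself was 2.79 in *sir2* against 4.17 and 5.60 in WT of the *FOB1* strains. In the expanded strains it was 2.95 at 30 s and 2.16 at 1 min in *sir2* against 3.27 at 30 s and 3.07 at 1 min in *SIR2*. The p-values measure only the spread between libraries, which may be technical where libraries share a culture. With libraries averaged per strain, the differences were -20.9 percentage points and -0.56 in log2 ratio (exact permutation p = 0.5 for both, the smallest p that 2 strains per genotype allow here).

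**Figure D4:**
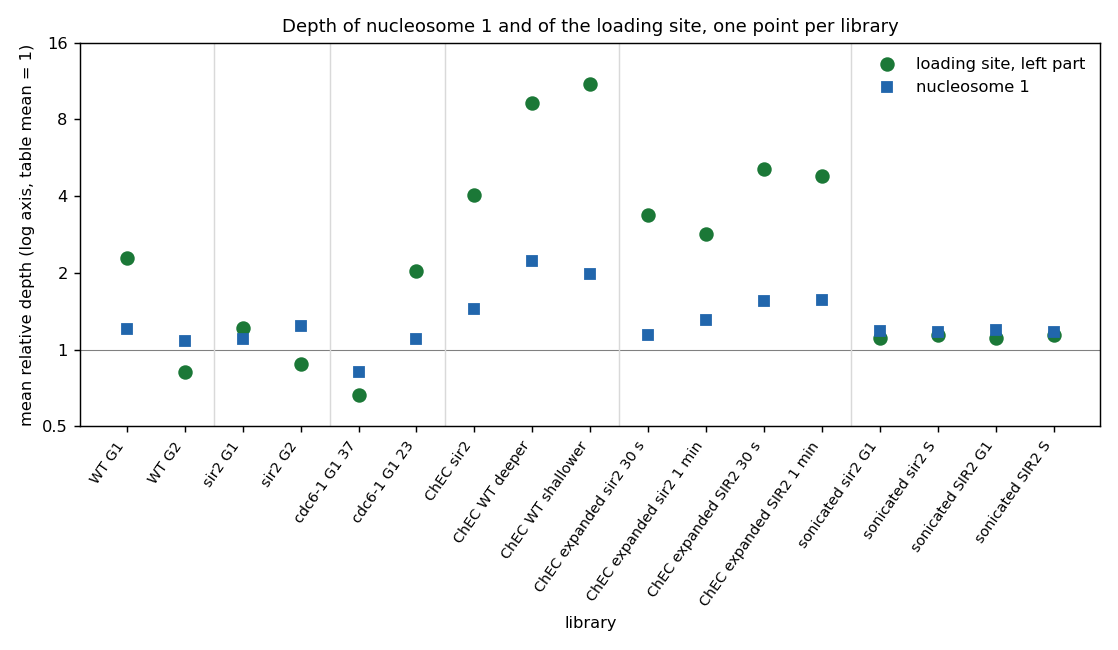
Mean relative depth (log axis) of nucleosome 1 (blue squares) and of the left part of the loading site (green circles), with 1 point for each library. The loading site lies above nucleosome 1 in all 7 ChEC libraries and in 3 MNase-seq libraries, WT in G1, *sir2* in G1 and *cdc6-1* at 23°, and close to it in sonicated DNA.

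The order of the libraries by the depth of the loading site put the 7 ChEC libraries first, from 11.1 in WT to 2.83 in expanded *sir2*, followed by the MNase-seq libraries of WT in G1 at 2.30, *cdc6-1* at 23° at 2.04 and *sir2* in G1 at 1.22. Then came the 4 sonicated libraries at 1.11 to 1.14, *sir2* in G2 at 0.882, WT in G2 at 0.814 and *cdc6-1* at 37° at 0.665. Nucleosome 1 varied less, from 0.815 to 1.24 in MNase-seq and from 1.14 to 2.22 in Mcm2-ChEC, with 1.17 to 1.19 in sonicated DNA.

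The MNase-seq differences were compared with the Mcm2-ChEC depth base by base. Across the 270 bases, the difference between WT in G1 and in G2 in MNase-seq had a Pearson r of 0.96 with the mean Mcm2-ChEC depth of WT. The difference between *cdc6-1* at 37° and at 23° had an r of -0.95 with the same ChEC depth. For *sir2*, the difference between G1 and G2 had an r of 0.61 with the *sir2* ChEC depth. Over all 2001 bases the corresponding values were 0.90 for WT, -0.85 for *cdc6-1* and 0.44 for *sir2*. Neighbouring bases share reads and both assays use the same nuclease and reference, so these values describe the profiles and carry no p.

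The last tile before the rARS held the extreme log2 ratio of 3 MNase-seq comparisons, 1.99 for WT in G1 over G2, 1.16 for *sir2* in G1 over G2 and -1.21 for *sir2* over WT in G1. The comparison of *cdc6-1* at 37° with 23° and that of *sir2* with WT in Mcm2-ChEC had their lowest value in the loading site 1 tile further left, at -1.83 and -1.41. In the expanded strains the last 2 tiles were both at -0.70.

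**Figure D5:**
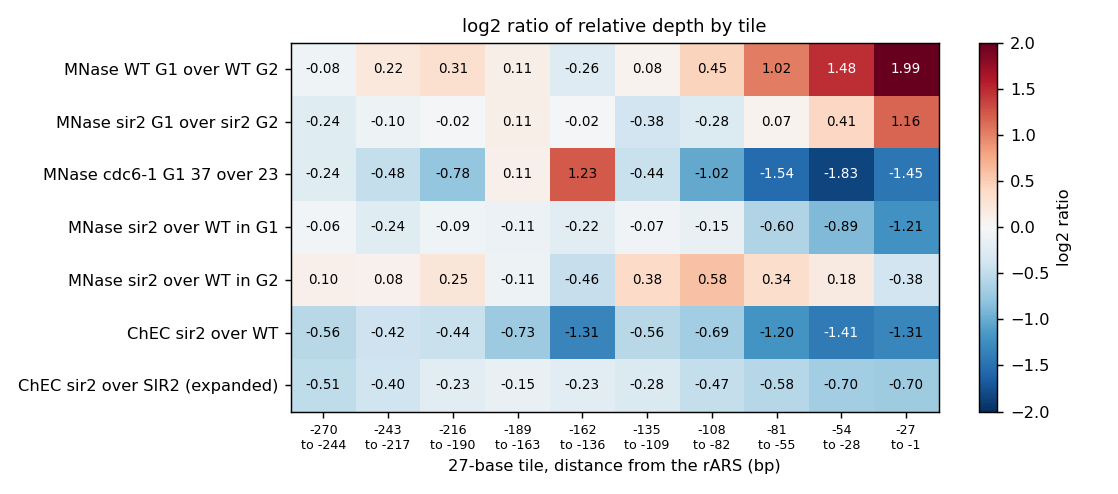
Log2 ratio of relative depth in 10 tiles of 27 bases (horizontal axis, distance from the rARS in bp) for the 7 comparisons (rows). Red is higher and blue is lower in the group named first. The last 3 tiles hold the loading site, where the ratios run from 1.99 to -1.83, and the tile at -162 to -136 lies in the trough of nucleosome 1, with 1.23 for *cdc6-1* and -1.31 for ChEC of *sir2* over WT.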

How the data were processed

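Fragments were read by the authors for 50 bases at either end and aligned to sacCer3 with GSNAP, and they deposited read depth (signal) for each of 2001 bases of chromosome XII, without scaling to library size or selection by fragment size. The submitters' notes also name Picard and bedtools; versions are not given in the sources used here. Of its 28 columns, 17 were used, and the 11 others were not. ARS1200-1 of the RefSeq R64 annotation starts at the base the study gives for the rARS. Libraries of expanded strains were mapped to a modified chromosome XII, and the sonicated ones drop below 0.5 of their median depth at base 459885.

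Each depth was divided by its library's mean over the table. Summed depth divided by 50 gave 759788 to 2233018 reads for MNase-seq, 689392 to 5022993 for Mcm2-ChEC and 24177 to 85504 for sonicated DNA. In each group with 2 libraries, binned counts differed by more than sampling noise, so neither was a second deposit of the other; this does not show separate cultures. Ratios are of group means with log-normal 95% intervals for single libraries, and shares have Wilson intervals. Both kinds of interval treat reads as independent counts, which the reads from either end of a fragment are not. Bases were counted at 1.5-fold. The 4 tests over libraries were exact two-sided permutation tests of the difference in means (threshold 0.05), adjusted after Benjamini and Hochberg. Named positions were the highest and lowest base of each window, the 3 largest rises and the 3 largest falls per library. Alternatives were scaling to the Reb1 footprint or to the depth outside the stretch, trimming 20 bases from each end, window maxima, 2-fold, averaging per strain and leaving out each library. Scaling to the depth left of the drop and matching of calcium times were added after seeing the data. The stretch, windows and lists were chosen with earlier results of these data known. Scripts were tested on simulated reads. The scripts ran under Python 3.11.15 with scipy 1.17.1, numpy 2.4.6, matplotlib 3.10.9 and pandas 2.3.3.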

Additional observations from a re-analysis of the deposited data

Results flagged for a closer look

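The ratio of *sir2* to WT in MNase-seq had opposite directions in the 2 arrests, with 1 library each, and the difference was not tested. In G1 it was 0.743 for the whole stretch, 0.915 for nucleosome 1 and 0.530 for the loading site. The G2 values were 1.14 for the stretch, 1.14 for nucleosome 1 and 1.08 for the loading site. Nucleosome 1, compared between G1 and G2, also had opposite directions, 1.11 in WT and 0.893 in *sir2*, again with 1 library each and no test. Nuclease amounts differed between the arrests, and their part in these differences was not tested. No group held the 4 libraries needed to look for outlying samples.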

How the results depend on the processing

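Of 102 alternative values for 32 results, 70 were labelled as unchanged, by a rule that differed with the kind of result. Ratios had to move by less than the replicate spread or the counting interval. Tests only had to keep their p on the same side of the threshold. Base counts were judged by the change in the count alone, with no spread or interval. Both tests of *sir2* against *SIR2* libraries cannot reach the threshold in this design, so their alternatives could only be labelled unchanged. Counting intervals are narrow at these depths, so small shifts fall outside them. Scaled to the Reb1 footprint, the ratio of the stretch was 1.71 (WT, G1 over G2), 1.06 (*sir2*, G1 over G2), 0.545 (*cdc6-1*, 37° over 23°), 1.19 (*sir2* over WT in G2), 0.800 (ChEC, *sir2* over WT) and 0.862 (ChEC, expanded *sir2* over *SIR2*). Scaled to the depth outside the stretch it was 1.68 (WT, G1 over G2), 0.499 (*cdc6-1*), 0.697 (*sir2* over WT in G1), 1.17 (*sir2* over WT in G2), 0.272 (ChEC, *sir2* over WT) and 0.595 (ChEC, expanded). Narrowed by 20 bases at each end it was 1.504 (WT, G1 over G2), 0.980 (*sir2*, G1 over G2), 0.544 (*cdc6-1*), 0.767 (*sir2* over WT in G1) and 1.18 (*sir2* over WT in G2). Scaled to the depth left of the drop it was 1.52, 0.985, 0.774 and 1.20 for WT G1 over G2, *sir2* G1 over G2, *sir2* over WT in G1 and *sir2* over WT in G2. With window maxima, the change of the ratio of loading site to nucleosome 1 was 2.30 (WT, G1 over G2), 0.501 (*cdc6-1*) and 0.611 (*sir2* over WT in G1), and it turned round for *sir2* in G1 over G2 (0.998, against 1.55 with means) and for *sir2* over WT in G2 (1.41, against 0.948). In both G2 libraries the highest base of the loading site was its first, 458911, at 1.04 in WT and 1.56 in *sir2*. It is also the last base of the read from 458862 to 458911 in nucleosome 1. The part of this edge base in the turns was not tested. At 2-fold, the bases counted as lower were 93 (*cdc6-1*), 28 (*sir2* over WT in G1), 0 (*sir2* over WT in G2), 117 (ChEC, *sir2* over WT) and 0 (ChEC, expanded), and those counted as higher were 0 (*sir2* over WT in G2).

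Leaving out 1 library at a time, the ratio of the stretch was 0.474 to 0.515 (ChEC, *sir2* over WT) and 0.683 to 0.703 (ChEC, expanded), and the change of the ratio of loading site to nucleosome 1 was 0.498 to 0.670 and 0.682 to 0.931. The exact permutation p was 0.111 to 0.167 for both comparisons of *sir2* with *SIR2* (0.5 with libraries averaged per strain), 0.00952 to 0.05 for ChEC against sonicated DNA and 0.492 to 1 for MNase-seq against sonicated DNA, whose difference then ran from -0.993 to 1.10 percentage points. No paired analysis was possible because the columns carry no replicate numbers. Matched by calcium time, the ratio of the stretch in the expanded strains was 0.692 at 30 s and 0.694 at 1 min.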
